A study of Mus musculus with 16 samples.

Results

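The comparison described here sets quadriceps muscle of fasted mice whose muscle fibres lack the FoxO genes Foxo1, Foxo3 and Foxo4 (mFoxO-TKO_Fasted) against quadriceps of fasted wild-type mice (WT_Fasted), with 4 arrays in each group, chosen by title, out of 16 arrays in all. All mice were male and 8 weeks old, kept at 24 °C on CE-2 chow, and the fasted mice had gone without food for 24 h in individual cages. The other 8 arrays came from fed mice of the same genotypes (mFoxO-TKO_Fed and WT_Fed, 4 each), and they enter here through the estimate of spread and the test of whether a difference depended on feeding. The Cre recombinase that deletes the 3 genes was driven by the human α-actin (HSA) promoter, which is active in muscle fibres, so other cells of the muscle kept their FoxO genes. Each array was hybridised with Cy3-labelled total RNA of whole quadriceps, and each is taken as 1 mouse.

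FoxO proteins are transcription factors under the control of insulin and growth factors. While insulin is present, the kinase Akt phosphorylates them and they are held outside the nucleus, and in fasting they enter it and bind promoters that carry a short adenine-rich motif. In skeletal muscle they are known for switching on genes of the ubiquitin and proteasome system and of autophagy, the routes by which a fasting muscle breaks down its own protein, and for acting on genes of glucose use and of growth factor signalling.

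Levels are given as log2 of the processed signal minus the 75th percentile of that array, so that 0 is the 75th percentile, and array values are listed in the order of replicates 1 to 4. A difference is the mean of fasted mFoxO-TKO minus the mean of fasted WT arrays on that log2 scale, ± its standard error from a limma model of all 16 arrays. A gene passed, and is said to have risen or fallen, where the Benjamini-Hochberg adjusted p over 21281 genes was under 0.05. In bulk tissue, fewer cells of a type and less RNA per cell cannot be told apart.

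Between 45% (fasted mFoxO-TKO replicate 1) and 75.2% (fasted WT replicate 4) of the spots of an array were well above background, and no spot was saturated. Replicates 1 and 2 of every group lay on one slide and replicates 3 and 4 on the other, and within a slide each group had an array column of its own, so array position and group cannot be told apart. The array of fasted mFoxO-TKO replicate 1 stood apart from the rest, with a score of 87.1 on the second principal component against -38.4 to 29.5 for the others. It also held 3682 spots in dim blocks of 8 by 8 spots (6.21% of its spots, against at most 0.921% on another array), in which the bright spots lay over 1 below those of the other arrays of the group on the log2 scale. Counts are therefore given with and without this array.

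The labelled tissue was checked with markers. The summed level of 10 muscle fibre genes, as linear multiples of the 75th percentile, ran from 2991 to 5732 on fasted mFoxO-TKO arrays and from 3157 to 4662 on fasted WT arrays, with all 10 above background on every fasted array. Of 10 fibroblast markers 1 rose (Scx) and of 9 macrophage markers 1 rose (Mrc1), where 4.39% of all genes rose. By limma 0 of 59 tested markers in the other 9 lists passed, where 9.36% of all genes did, and 4 had an unadjusted p under 0.05. Of those 9 lists, the satellite cell marker Cdh15 passed with replicate number as a block (0.73, adjusted p = 0.0307), and the muscle fibre gene Mylpf passed without fasted WT replicate 2 (0.97, adjusted p = 0.0305). The summed marker levels of the groups overlapped in all 11 lists. For macrophages they ran from 16.1 to 35.5 in fasted mFoxO-TKO muscle and from 16.5 to 21.4 in fasted WT muscle, and for endothelial cells from 72.0 to 107 in fasted mFoxO-TKO and from 61.3 to 101 in fasted WT muscle. All differences were positive for the 9 macrophage (median 0.42), 6 satellite cell (0.49), 6 Schwann cell (0.36) and 5 red blood cell markers (0.23), against a median of 0.04 over all genes. Of 7 adipocyte markers 6 were negative, and the other lists held both signs. A shift in cell make-up was not tested.

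The targeted genes were read first. Foxo1 stood at 2.12, 1.78, 1.77 and 1.88 on fasted mFoxO-TKO arrays, against 5.98, 5.23, 5.0 and 4.92 on fasted WT arrays (-3.4 ± 0.23, 10.5-fold lower, adjusted p = 3.38e-07). Its other probe differed by -2.74 ± 0.27. Foxo4 stood at -5.24, -6.9, -5.93 and -6.38 on fasted mFoxO-TKO arrays, against -1.78, -1.87, -2.04 and -1.85 on fasted WT arrays. No mFoxO-TKO array was well above background for it, so Foxo4 was at least 6.12-fold lower (adjusted p = 3.38e-07). The bound sets the WT mean against the detection limit of the mFoxO-TKO arrays, taken as their dimmest detected signal. Foxo3 was read by a dim probe at -3.06, -2.28, -2.86 and -2.89 in fasted mFoxO-TKO muscle, against -1.27, -2.04, -2.81 and -1.97 in fasted WT muscle, and the difference of -0.75 ± 0.27 did not pass (adjusted p = 0.0976). It passed with replicate number as a block (adjusted p = 0.0409), with slide as a block, with array weights, with quantile normalization and without fasted WT replicate 3. In fed muscle the same probe differed the other way, by 0.74 ± 0.27 (adjusted p = 0.299 by limma), and the interaction of -1.49 ± 0.38 did not pass either (adjusted p = 0.0778). The fasted groups overlapped for Foxo3 and for neither of the other 2 genes. The sources used here do not say where the probes lie relative to the deleted exons, and only a probe within those exons would check the deletion.

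In all, 1991 of 21281 genes passed (9.36%), of which 1057 fell (4.97% of those tested) and 934 rose (4.39%). At least 2-fold changes were found for 463 genes that fell and 473 that rose. The 4 arrays of a group did not overlap those of the other for 2723 genes (12.8%), and 1768 of these passed. The median difference over all genes tested was 0.04. Counts of list members below are to be read beside the shares of 4.97% lower and 4.39% higher. Without fasted mFoxO-TKO replicate 1 the count was 2301, with 1491 lower and 810 higher. With replicate number as a block it was 3377, with 1729 lower and 1648 higher. With the 75th percentile taken over probes above background on all arrays it was 3399, and the balance turned, with 1361 lower and 2038 higher. The plot of difference against level shows all genes tested.

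**Figure D1:**
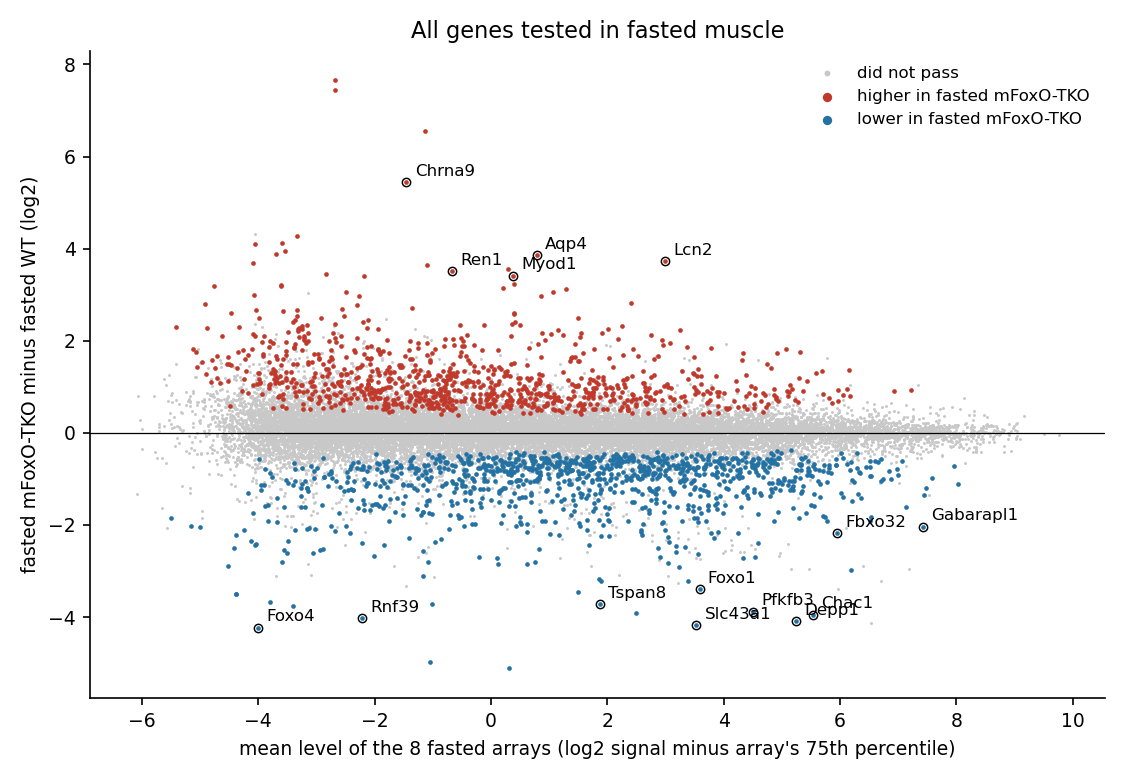
Difference between fasted mFoxO-TKO and fasted WT muscle (log2, vertical axis) against the mean level over the 8 fasted arrays (log2 signal minus the array's 75th percentile, horizontal axis) for 21281 genes. Red points are the 934 genes that rose, blue points the 1057 that fell and grey points those that did not pass, and circles mark named genes such as Depp1 at -4.09 and Lcn2 at 3.74.

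Promoters of genes that fell were then set beside those of other genes, using RefSeq windows of 300 bases (GRCm38.p6, 250 bases before and 50 after the annotated start). The motif searched was GTAAACA on both strands, whose reverse complement is TGTTTAC, and its inner core AAACA on both strands, which every longer match also contains. The longer motif was found in 5.4% of 834 windows of genes that fell (45 windows, 95% exact binomial interval 3.96% to 7.15%), in 2.40% of 709 windows of genes that rose (1.40% to 3.81%) and in 2.44% of 12765 windows of genes that did not pass (2.18% to 2.73%). It was found in 7.52% of 319 windows of genes that fell at least 2-fold and in 3.65% of all 32851 windows. The core was found in 44.4%, 34% and 39.6% of windows of genes that fell, rose and did not pass, and in 50.5% of all windows. Several windows can belong to 1 gene, and a match is a description of letters, not a site. Of 50 genes described here that fell and had a window, 6 held the longer motif. They were Junb and the following 5 genes, printed 5′ to 3′ on the gene's strand with the longer motif in capitals. Gabarapl1, which held only the core, follows with the core in capitals.
Trim63: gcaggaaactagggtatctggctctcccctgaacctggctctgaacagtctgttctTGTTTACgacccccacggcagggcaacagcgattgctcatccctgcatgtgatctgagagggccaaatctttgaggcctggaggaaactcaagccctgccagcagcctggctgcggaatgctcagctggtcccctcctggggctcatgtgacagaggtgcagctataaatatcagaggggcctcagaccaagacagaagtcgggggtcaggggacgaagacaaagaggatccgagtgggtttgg
Sesn1: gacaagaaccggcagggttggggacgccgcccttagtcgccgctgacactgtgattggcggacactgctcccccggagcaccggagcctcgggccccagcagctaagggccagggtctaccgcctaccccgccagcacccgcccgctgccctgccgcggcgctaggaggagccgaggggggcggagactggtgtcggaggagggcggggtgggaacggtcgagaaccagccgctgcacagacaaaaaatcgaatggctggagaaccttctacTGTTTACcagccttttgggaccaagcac
Tmem140: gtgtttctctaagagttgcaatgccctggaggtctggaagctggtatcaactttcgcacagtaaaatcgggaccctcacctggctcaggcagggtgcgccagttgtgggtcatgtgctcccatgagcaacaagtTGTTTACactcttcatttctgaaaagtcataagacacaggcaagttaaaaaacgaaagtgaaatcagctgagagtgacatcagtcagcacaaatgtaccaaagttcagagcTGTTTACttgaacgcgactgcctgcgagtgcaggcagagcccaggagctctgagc
Tspan8: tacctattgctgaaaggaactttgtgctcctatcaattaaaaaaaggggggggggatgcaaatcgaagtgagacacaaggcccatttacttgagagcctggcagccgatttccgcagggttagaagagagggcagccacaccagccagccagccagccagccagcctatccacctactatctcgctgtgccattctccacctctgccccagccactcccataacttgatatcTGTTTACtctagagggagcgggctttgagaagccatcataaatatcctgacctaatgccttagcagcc
Rnf39: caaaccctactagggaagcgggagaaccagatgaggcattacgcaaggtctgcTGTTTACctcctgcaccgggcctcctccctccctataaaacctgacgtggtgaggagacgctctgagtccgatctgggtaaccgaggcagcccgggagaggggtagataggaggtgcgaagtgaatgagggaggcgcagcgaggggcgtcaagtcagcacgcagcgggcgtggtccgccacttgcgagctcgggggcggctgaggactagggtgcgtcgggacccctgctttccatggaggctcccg
Gabarapl1: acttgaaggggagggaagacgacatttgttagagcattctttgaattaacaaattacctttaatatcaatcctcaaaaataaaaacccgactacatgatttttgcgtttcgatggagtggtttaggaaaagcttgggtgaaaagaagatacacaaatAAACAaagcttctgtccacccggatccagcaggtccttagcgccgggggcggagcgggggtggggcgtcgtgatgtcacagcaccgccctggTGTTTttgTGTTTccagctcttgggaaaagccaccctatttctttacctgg
The windows lie at chr4:134314870-134315169 (plus strand) for Trim63, at chr10:41810324-41810623 (plus strand) for Sesn1 and at chr6:34862896-34863195 (plus strand) for Tmem140. Those of the other 3 lie at chr10:115817034-115817333 (plus strand) for Tspan8, at chr17:36942801-36943100 (plus strand) for Rnf39 and at chr6:129532942-129533241 (plus strand) for Gabarapl1. The longer match began 194 bases before the annotated start in Trim63, 197 before it in Rnf39 and 18 before it in Tspan8. In Tmem140 a pair of matches began 116 and 5 bases before the start, and in Sesn1 the match began 22 bases after it. The core matches of Gabarapl1 began 93 and 1 bases before and 7 after the start.

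Protein breakdown by the proteasome begins with ligases that tag proteins with ubiquitin. Of 26 ubiquitin ligases and partners linked to atrophy 7 fell, 0 rose and 19 did not pass, and their median difference was -0.19, against 0.04 over all genes, of which 4.97% fell. The number that fell was 6 without fasted mFoxO-TKO replicate 1, and 5 without replicate 2 of that group or fasted WT replicate 1, 3 or 4. Fbxo32 (atrogin-1), the adaptor of a muscle ligase that is a standard marker of atrophy, stood at 5.29, 4.39, 4.83 and 4.94 in fasted mFoxO-TKO muscle, against 7.13, 6.93, 7.07 and 7.02 in fasted WT muscle (-2.17 ± 0.32, 4.51-fold lower, adjusted p = 0.000391). All 4 knockout arrays lay more than 1 unit below all WT arrays. Trim63 (MuRF1), the ligase that tags myosin and other contractile proteins, stood at 8.51, 7.22, 7.64 and 6.53 against 9.0, 8.5, 8.56 and 8.26 in fasted WT muscle (-1.11 ± 0.33, 2.16-fold lower, adjusted p = 0.0489). Replicate 1 of the knockout lay among the WT arrays, the groups overlapped, and the call was lost without any of 7 of the 8 fasted arrays (adjusted p from 0.057 to 0.139). It was kept without fasted mFoxO-TKO replicate 1 (-1.45, adjusted p = 0.00358), and the dimmer probe of Trim63 fell by 2.38 ± 0.28 (adjusted p = 5.12e-05).

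Fbxo30, which encodes the ligase MUSA1, stood at 1.23, 0.63, 0.88 and 0.68 in fasted mFoxO-TKO muscle, against 2.52, 2.18, 2.02 and 2.26 in fasted WT muscle (-1.39 ± 0.16, 2.62-fold lower, adjusted p = 5.53e-05). Klhl38, a kelch-like protein gene raised in atrophying muscle, stood at 3.11, 2.34, 2.3 and 2.57 against 4.91, 4.5, 4.44 and 4.24 in fasted WT muscle (-1.94 ± 0.27, 3.84-fold lower, adjusted p = 0.000243). Neither gene's groups overlapped. Ube4a, which extends ubiquitin chains, fell by 1.24 ± 0.15 (2.36-fold lower, adjusted p = 5.31e-05). Fbxo31 and Ubr2 completed the 7 that fell.

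Of 23 genes that supply and remove ubiquitin 1 fell (Usp1, a deubiquitinating enzyme), near the share of all genes, 0 rose and the median was 0.00. The fall was lost without fasted mFoxO-TKO replicate 2, 3 or 4 or fasted WT replicate 1 or 3, 1 rose without fasted WT replicate 1, and 4 fell without fasted mFoxO-TKO replicate 1 and 5 with replicate number as a block.

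The proteasome, the barrel-shaped protease that degrades tagged proteins, had 6 of 36 genes lower (4.97% of all genes fell), 0 higher and 30 that did not pass. Its median of -0.40 lay below that of all genes, and 33 of the 36 differences were negative. The count was 10 without fasted mFoxO-TKO replicate 1, 3 without replicate 4 of that group and 13 with replicate number as a block. Psme4, the activator PA200, stood at 4.05, 3.69, 3.71 and 3.65 in fasted mFoxO-TKO muscle, against 5.0, 4.82, 4.59 and 4.59 in fasted WT muscle (-0.97 ± 0.14, 1.97-fold lower, adjusted p = 0.00023). Psmd11, a subunit of the regulatory cap, stood at 4.64, 4.03, 3.95 and 3.94 against 5.01, 4.75, 4.57 and 4.99 in fasted WT muscle (-0.69 ± 0.16, 1.61-fold lower, adjusted p = 0.0103). For Psmd11 only replicate 1 of the knockout reached the WT range. Psma5, Psmb2, Psmb4 and Psmd3 also fell, and Psma1, a core subunit, did not pass (-0.57 ± 0.18, adjusted p = 0.0655), although its groups did not overlap. It passed in 9 other settings, among them with replicate number as a block (adjusted p = 0.00313) and without fasted mFoxO-TKO replicate 1.

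**Figure D2:**
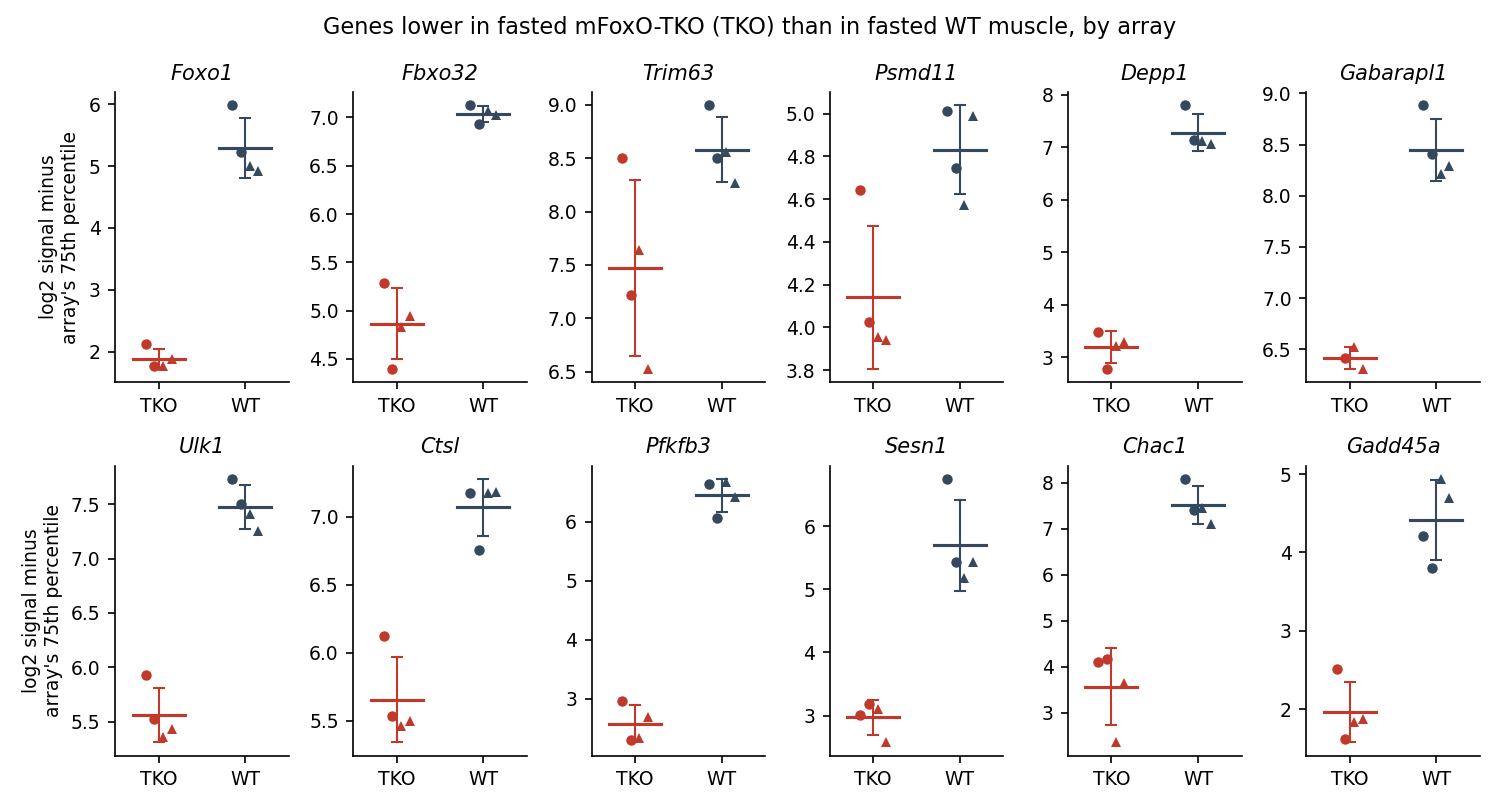
Level by array (log2 signal minus the array's 75th percentile) of 12 genes described in the text, fasted mFoxO-TKO (TKO, red) left of fasted WT (dark). Circles are replicates 1 and 2 (first slide), triangles replicates 3 and 4 (second slide), and bars give the mean ± SD. Only Trim63 and Psmd11 overlap between the groups, and Gabarapl1 has 3 knockout points because 1 outlier spot was left out.

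Autophagy, in which a membrane engulfs cell contents and delivers them to the lysosome, had 12 of 42 genes lower, 0 higher and 30 that did not pass (13 lower without fasted mFoxO-TKO replicate 1, and 1 higher without fasted mFoxO-TKO replicate 3 or fasted WT replicate 2). The median was -0.21, and of all genes 4.97% fell. Depp1, a FoxO target linked to autophagy, stood at 3.48, 2.78, 3.21 and 3.3 in fasted mFoxO-TKO muscle, against 7.8, 7.14, 7.12 and 7.06 in fasted WT muscle (-4.09 ± 0.38, 17-fold lower, adjusted p = 6.75e-06). Gabarapl1, which encodes a ubiquitin-like protein of the growing autophagosome membrane, stood at 6.41, 6.52 and 6.31 on knockout arrays 2 to 4, against 8.89, 8.41, 8.21 and 8.29 in fasted WT muscle (-2.04 ± 0.21, 4.1-fold lower, adjusted p = 2.92e-05, replicate 1 left out as an outlier spot). The gap between the groups was at least 1.69 units on these arrays.

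Ulk1, the kinase that starts autophagy, stood at 5.93, 5.53, 5.37 and 5.43 in fasted mFoxO-TKO muscle, against 7.73, 7.5, 7.4 and 7.26 in fasted WT muscle (-1.91 ± 0.16, 3.76-fold lower, adjusted p = 3.48e-06). Sqstm1 (p62), a receptor for ubiquitin-tagged cargo, differed by -1.25 ± 0.13 (adjusted p = 2.78e-05, 3 knockout arrays), and Map1lc3b (LC3B), a membrane marker of autophagosomes, by -1.05 ± 0.21 (adjusted p = 0.00472). The other 7 that fell were Rb1cc1 and Atg13, partners of Ulk1, Atg14, Uvrag and Wipi2, which act in membrane nucleation, the mitophagy receptor Bnip3l, and Zfand5.

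Bnip3, another mitophagy receptor, is named after its values were seen because the dim blocks touched it. It stood at -4.85, 7.61, 7.73 and 7.44 in fasted mFoxO-TKO muscle, against 8.82, 8.4 and 8.59 on WT arrays 2 to 4. Replicate 1 of the knockout, at -4.85, lay more than 12 units below the other 3, inside a dim block. The difference of -4.12 ± 2.27 did not pass (adjusted p = 0.328), and with the spots of those blocks left out it was -1.01 and passed (adjusted p = 0.00323). The other 2 probes of Bnip3 also passed, at -0.74 ± 0.14 and -1.97 ± 0.19 (adjusted p = 0.00322 and 1.21e-05). Of 10 list members with differences under -2 that did not pass, 7 had a probe in these blocks.

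Lysosomal genes had 5 of 39 members lower and 1 higher (Grn), where 4.97% of all genes fell and 4.39% rose. The median was -0.05, and 5 members were lower without fasted mFoxO-TKO replicate 1. The fall count was 8 with replicate number as a block. The rise of Grn was lost without fasted mFoxO-TKO replicate 2 or 4 or fasted WT replicate 3. Ctsl, a lysosomal protease that rises in atrophy, stood at 6.12, 5.53, 5.46 and 5.5 in fasted mFoxO-TKO muscle, against 7.17, 6.75, 7.17 and 7.18 in fasted WT muscle (-1.41 ± 0.16, 2.67-fold lower, adjusted p = 4.11e-05). Npc1, which exports cholesterol from the lysosome, stood at 1.41, 1.06, 1.93 and 1.52 against 4.12, 3.21, 3.6 and 3.89 in fasted WT muscle (-2.23 ± 0.21, 4.68-fold lower, adjusted p = 6.41e-06). Both genes had separate groups. Of the proton pump, Atp6v1h differed by -0.87 ± 0.19 and Atp6v1a by -0.83 ± 0.18 (adjusted p = 0.0069 and 0.00824), and Neu1, a sialidase, also fell. The membrane protein gene Lamp2 differed by -0.4 ± 0.19 and did not pass (adjusted p = 0.228), but passed with replicate number as a block (-0.48, adjusted p = 0.0053).

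Insulin and growth factor signalling, the pathway that controls FoxO proteins, had 9 of 38 genes lower and 4 higher (11 and 3 without fasted mFoxO-TKO replicate 1), with a median of -0.32. With 1 array left out, 8 to 11 fell and 3 or 4 rose, where 4.97% of all genes fell and 4.39% rose. Among the restraints on this pathway, Pik3ip1, an inhibitor of PI3-kinase, stood at 2.41, 1.38, 1.89 and 1.45 in fasted mFoxO-TKO muscle, against 4.98, 4.73, 4.8 and 4.25 in fasted WT muscle (-2.91 ± 0.23, 7.5-fold lower, adjusted p = 1.22e-06). Sesn1, a sestrin that restrains mTORC1, stood at 3.01, 3.19, 3.11 and 2.58 against 6.75, 5.43, 5.18 and 5.43 in fasted WT muscle (-2.72 ± 0.29, 6.61-fold lower, adjusted p = 2.54e-05). Eif4ebp1, which encodes the translation repressor 4E-BP1, stood at 6.21, 5.78, 5.07 and 5.39 against 7.77, 6.9 and 7.66 on WT arrays 2 to 4 (-1.83 ± 0.31, 3.56-fold lower, adjusted p = 0.00134). Each of these 3 restraints was lower in the knockout on every array measured. Tsc1, Rictor and Akt2 fell as well, and Klf15 and Tsc22d3, described with the glucocorticoid response, completed the 9.

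Genes of the receptor and its adaptors moved in both directions. Igf1r, the receptor of insulin-like growth factor, stood at 1.34, 0.89, 0.91 and 0.91 in fasted mFoxO-TKO muscle, against 2.62, 2.02, 2.86 and 2.6 in fasted WT muscle (-1.51 ± 0.18, 2.85-fold lower, adjusted p = 4.68e-05). Pik3r1, the regulatory subunit of PI3-kinase, was higher at 1.81, 2.52 and 2.08 on knockout arrays 2 to 4, against 0.45, 0.87, 0.3 and 0.68 in fasted WT muscle (1.56 ± 0.27, 2.96-fold higher, adjusted p = 0.00171). Grb14, an adaptor that inhibits the insulin receptor, differed by 1.57 ± 0.29 (2.97-fold higher, adjusted p = 0.00213). Igfbp5, a binding protein of insulin-like growth factors, stood at 6.2, 5.46, 4.54 and 4.66 against 4.06, 3.83, 3.31 and 2.67 in fasted WT muscle (1.74 ± 0.38, 3.35-fold higher, adjusted p = 0.00806). The fourth that rose was Trib2. Irs2, an insulin receptor substrate, had separate groups but did not pass (-1.03 ± 0.34, adjusted p = 0.075), and passed without fasted mFoxO-TKO replicate 1 and with replicate number as a block (adjusted p = 0.00972).

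Genes of the glucocorticoid response, which the adrenal stress hormone raises in fasting, moved both ways, with 4 of 24 lower and 2 higher (5 and 2 without fasted mFoxO-TKO replicate 1, 8 and 2 with replicate number as a block). With 1 array left out, 3 to 5 fell, where 4.97% of all genes fell and 4.39% rose. Lcn2, a secreted lipocalin, stood at 5.04, 4.03, 5.67 and 4.68 in fasted mFoxO-TKO muscle, against 1.96, 1.05, 0.43 and 1.03 in fasted WT muscle (3.74 ± 0.44, 13.3-fold higher, adjusted p = 4.9e-05). The lowest knockout array lay more than 2 units above the highest WT array. Klf15, a transcription factor of amino acid breakdown, stood at 3.12, 2.81, 2.59 and 2.47 against 5.12, 4.15, 4.5 and 4.15 in fasted WT muscle (-1.73 ± 0.28, 3.32-fold lower, adjusted p = 0.000873). Cebpd, a transcription factor, differed by -1.61 ± 0.38 (adjusted p = 0.0117), and Tsc22d3 (GILZ), a mediator of glucocorticoid action, by -0.99 ± 0.22 (adjusted p = 0.01, 3 knockout arrays). Arrdc2 also fell and Pik3r1, given above, also rose. The widely used response genes Fkbp5 and Per1 did not pass (0.13 ± 0.36 and -0.21 ± 0.34, adjusted p = 0.888 and 0.791), with overlapping groups.

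The integrated stress response, led by the factor ATF4, had 7 of 35 genes lower and 0 higher, with a median of -0.35, where 4.97% of all genes fell. The number lower was 9 without fasted mFoxO-TKO replicate 1, and 5 without replicate 4 of that group or fasted WT replicate 1 or 3. Chac1, which degrades glutathione, stood at 4.11, 4.16, 2.35 and 3.64 in fasted mFoxO-TKO muscle, against 8.09, 7.4, 7.45 and 7.11 in fasted WT muscle (-3.95 ± 0.43, 15.4-fold lower, adjusted p = 2.7e-05). Gadd45a, which halts growth and is tied to muscle atrophy, stood at 2.51, 1.61, 1.84 and 1.87 against 4.21, 3.8, 4.94 and 4.7 in fasted WT muscle (-2.45 ± 0.26, 5.48-fold lower, adjusted p = 2.46e-05). Ppp1r15a (GADD34), which restores translation after stress, stood at 4.53, 3.91, 3.7 and 3.53 against 6.33, 5.79, 5.51 and 5.69 in fasted WT muscle (-1.92 ± 0.26, 3.77-fold lower, adjusted p = 0.000165). None of these 3 overlapped. Eif4ebp1, Cth, Atf5 and Slc7a1 completed the 7. Atf4 itself differed by -0.65 ± 0.27 and Asns, which makes asparagine, by -0.36 ± 0.25, and neither passed (adjusted p = 0.176 and 0.446). Atf4 passed with replicate number as a block (adjusted p = 0.00105). A dimmer probe of Atf4 gave -0.80 ± 0.15 and passed (adjusted p = 0.00257).

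The list of amino acid catabolism and related genes had 4 of 37 members lower (Ampd3, Aass, Hibadh and Gpt2) and 1 higher (Gpt), where 4.97% of all genes fell and 4.39% rose. The median was -0.39, with 28 negative differences. The number lower was 6 without fasted mFoxO-TKO replicate 1, 2 without fasted mFoxO-TKO replicate 2, 3 or 4 or fasted WT replicate 1, and 13 with replicate number as a block. Ampd3, which deaminates AMP rather than an amino acid and rises in atrophy, stood at -0.85, -1.42, -1.55 and -1.98 in fasted mFoxO-TKO muscle, against 1.22, -0.42, -0.4 and 0.05 in fasted WT muscle (-1.56 ± 0.31, 2.95-fold lower, adjusted p = 0.00419). Bcat2, the first enzyme of branched-chain amino acid breakdown, did not pass (-0.55 ± 0.25, adjusted p = 0.207). Outside the list, the amino acid transporter gene Slc43a1, among the 15 largest falls, stood at 1.4, 0.89, 2.02 and 1.48 in fasted mFoxO-TKO muscle, against 6.2, 5.44, 5.68 and 5.16 in fasted WT muscle (-4.17 ± 0.26, 18-fold lower, adjusted p = 1.36e-07).

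Genes of growth arrest and DNA damage had 9 of 26 members lower and 1 higher, and a median of -0.43, where 4.97% of all genes fell. The number lower was 9 without fasted mFoxO-TKO replicate 1 and 7 without replicate 2, 3 or 4 of that group. It was 6 without fasted WT replicate 1 and 10 without fasted WT replicate 2. Beside Gadd45a, Ccng2, a cyclin that rises when growth stops, stood at -0.75, -1.24, -0.94 and -1.08 in fasted mFoxO-TKO muscle, against 0.38, 0.03, 0.37 and 0.29 in fasted WT muscle (-1.27 ± 0.14, 2.41-fold lower, adjusted p = 2.5e-05). Trp53inp1, a stress gene under p53, differed by -1.05 ± 0.25 (adjusted p = 0.0132). Gadd45b, Gadd45g, Btg1, Btg2 and the inhibitors of cyclin-dependent kinases Cdkn1b and Cdkn1c also fell. Plk2, a polo-like kinase, alone rose (1.42 ± 0.26, adjusted p = 0.00214). Cdkn1a (p21) stood at 5.41, 4.91, 5.19 and 5.11 in fasted mFoxO-TKO muscle, against 5.02, 4.73, 4.04 and 4.71 in fasted WT muscle, and did not pass (0.53 ± 0.26, adjusted p = 0.249).

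The list of antioxidant, metallothionein and related genes had 10 of 32 members lower and 1 higher, with a median of -0.33, where 4.97% of all genes fell. The number lower was 14 without fasted mFoxO-TKO replicate 1 and 8 without any other single fasted array, and 2 were higher without fasted mFoxO-TKO replicate 3. Nfe2l2 (NRF2), the transcription factor that governs many of them, stood at 4.36, 3.56, 3.89 and 3.86 in fasted mFoxO-TKO muscle, against 5.02, 5.21 and 5.18 on WT arrays 2 to 4 (-1.22 ± 0.19, 2.33-fold lower, adjusted p = 0.000841). Srxn1, which repairs peroxiredoxins, stood at 5.65, 4.07, 3.96 and 3.78 against 6.17, 6.24, 6.19 and 6.27 in fasted WT muscle (-1.86 ± 0.34, 3.62-fold lower, adjusted p = 0.00197), with knockout replicate 1 far above the other 3. Gclm, a subunit of the enzyme that starts glutathione synthesis, stood at -3.51, -1.17, -0.74 and -0.8 against 1.55, 0.68, 0.9 and 1.41 in fasted WT muscle (-2.69 ± 0.45, 6.44-fold lower, adjusted p = 0.00109). Its knockout replicate 1 was in a dim block, and the difference was -2.04 without that array. Gpx3, a secreted glutathione peroxidase, differed by -1.56 ± 0.3 (adjusted p = 0.00276). Hmox1, Txnrd1, Gstm1, Prdx1 and Selenop also fell. So did Txnip, which is not itself an antioxidant enzyme and is also counted under glucose use. Gsta4, a glutathione transferase of lipid peroxides, rose (0.79 ± 0.15, adjusted p = 0.00335).

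Immediate early genes, which respond quickly to signals, had 7 of 23 members lower and 0 higher, with a median of -0.65 (7 without fasted mFoxO-TKO replicate 1, and 4 without fasted WT replicate 1). Over all genes 4.97% fell. Maff, a small MAF factor, stood at 1.53, 1.97, 1.61 and 1.42 in fasted mFoxO-TKO muscle, against 4.8, 3.65, 4.05 and 3.99 in fasted WT muscle (-2.49 ± 0.26, 5.61-fold lower, adjusted p = 1.9e-05). Ier3, a survival and stress gene, stood at 0.48, -0.43, -0.11 and -0.27 against 2.82, 1.71, 2.11 and 1.85 in fasted WT muscle (-2.2 ± 0.25, 4.61-fold lower, adjusted p = 3.62e-05). Mafk, another small MAF factor, differed by -1.64 ± 0.19 (adjusted p = 5.61e-05), and Junb, an AP-1 subunit linked to muscle mass, by -1.46 ± 0.25 (adjusted p = 0.00129). Junb was read at low levels, with means of -3.14 in fasted mFoxO-TKO and -1.68 in fasted WT muscle. Its call was lost with normexp background correction and on either slide alone. In fed muscle Junb differed the other way, by 0.74 ± 0.25, and did not pass (adjusted p = 0.251 by limma). Btg2, Myc and Klf6 also fell. Egr1 had higher values on all 4 knockout arrays, at 2.58, 1.73, 1.59 and 1.76 against 1.55, 0.19, 1.39 and 0.13 in fasted WT muscle, and did not pass (1.1 ± 0.42, adjusted p = 0.13).

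Odc1, the enzyme that starts polyamine synthesis, stood at 3.88, 3.23, 3.45 and 2.98 in fasted mFoxO-TKO muscle, against 6.1, 5.34, 5.94 and 5.76 in fasted WT muscle (-2.4 ± 0.21, 5.28-fold lower, adjusted p = 3.77e-06). It alone of 10 polyamine genes fell, where 4.97% of all genes did. The count was 3 without fasted mFoxO-TKO replicate 1, and 2 without fasted WT replicate 4 or with replicate number as a block. Of 29 genes of ribosome biogenesis 2 fell, where 4.97% of all genes did, namely Myc and Gnl3, a nucleolar protein gene (-1.02 ± 0.19, adjusted p = 0.00285). That count was 6 without fasted mFoxO-TKO replicate 1, 1 without fasted mFoxO-TKO replicate 2, 3 or 4 or fasted WT replicate 1 or 3, and 7 with replicate number as a block. Of 36 chaperone and unfolded protein response genes 3 fell, to be read beside that share of 4.97%. The count was 4 without fasted mFoxO-TKO replicate 1 and 2 without replicate 4 of that group. Edem1, which sends misfolded proteins to degradation, stood at 1.55, 0.57, 0.26 and 0.44 in fasted mFoxO-TKO muscle, against 3.17, 2.47, 2.11 and 2.66 in fasted WT muscle (-1.9 ± 0.26, 3.72-fold lower, adjusted p = 0.000218). Dnajb9, a co-chaperone, differed by -0.94 ± 0.2 (adjusted p = 0.00671), and Herpud1 was the third.

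The circadian clock list had 5 of 20 genes lower (5 without fasted mFoxO-TKO replicate 1) and 0 higher (1 without fasted WT replicate 2 or 3). Over all genes 4.97% fell. Cry2, a repressor within the clock, stood at 4.56, 4.51 and 4.07 on knockout arrays 2 to 4, against 6.55, 5.83, 5.84 and 5.86 in fasted WT muscle (-1.64 ± 0.26, 3.12-fold lower, adjusted p = 0.000902). The groups did not overlap. Rora and the casein kinase genes Csnk1d and Csnk1e also fell.

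Of 39 genes of glucose use 4 fell and 2 rose, where 4.97% and 4.39% of all genes did (5 and 2 without fasted mFoxO-TKO replicate 1, 6 and 5 with replicate number as a block). Pfkfb3, whose product makes the activator of phosphofructokinase and so promotes glycolysis, stood at 2.97, 2.3, 2.33 and 2.69 in fasted mFoxO-TKO muscle, against 6.65, 6.07, 6.67 and 6.42 in fasted WT muscle (-3.88 ± 0.2, 14.7-fold lower, adjusted p = 2.51e-08). The groups were more than 3 units apart, and a second, dimmer probe fell by 4.22 ± 0.26. Slc2a1 (GLUT1), the basal glucose transporter, stood at 1.72, 1.8 and 1.32 on knockout arrays 2 to 4, against 3.41, 2.69, 2.65 and 2.85 in fasted WT muscle (-1.29 ± 0.23, 2.44-fold lower, adjusted p = 0.00209). Pdp2, a phosphatase that switches on pyruvate dehydrogenase, differed by -1.45 ± 0.28 (adjusted p = 0.00364), and Txnip also fell. Fbp2 and Slc16a3 rose. The number that rose was 1 without fasted mFoxO-TKO replicate 2 or 3 or fasted WT replicate 3 or 4. It was 3 without fasted mFoxO-TKO replicate 4 or fasted WT replicate 2. Slc2a4 (GLUT4), the insulin-responsive transporter, differed by -0.13 ± 0.15 and Hk2, the muscle hexokinase, by 0.64 ± 0.22, and neither passed (adjusted p = 0.697 and 0.0881). Hk2 passed in 7 other settings, among them with replicate number as a block (adjusted p = 0.00771) and without fasted mFoxO-TKO replicate 4.

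Fatty acid use, which includes uptake, transport and oxidation, had 2 of 44 genes lower and 0 higher, with a median of -0.04, where 4.97% of all genes fell and 4.39% rose. The number lower was 3 without fasted mFoxO-TKO replicate 1, 4 with replicate number as a block, and 1 without fasted mFoxO-TKO replicate 2 or fasted WT replicate 3 or 4. Pnpla2, the triglyceride lipase ATGL, stood at 6.19, 6.16, 5.78 and 6.19 in fasted mFoxO-TKO muscle, against 6.97, 6.58, 6.82 and 6.93 in fasted WT muscle (-0.74 ± 0.16, 1.67-fold lower, adjusted p = 0.00579). Acot2, a mitochondrial thioesterase, differed by -0.91 ± 0.23 (adjusted p = 0.0208), a call lost without fasted mFoxO-TKO replicate 2 or fasted WT replicate 3 or 4 (adjusted p of at most 0.207 in any setting). Pdk4, which shuts off pyruvate dehydrogenase in fasting and is often described as a FoxO target, stood at 8.2, 7.98, 7.83 and 7.83 against 8.5, 8.36, 8.13 and 8.17 in fasted WT muscle, with overlapping groups (-0.33 ± 0.31, adjusted p = 0.607). Cpt1b, the entry step of fatty acids into mitochondria, differed by -0.09 ± 0.19 (adjusted p = 0.843), and Acot1, another thioesterase, by -0.88 ± 0.75 (adjusted p = 0.559). The knockout arrays of Acot1 ran from 0.23 to 4.95, against 3.48 to 4.91 on WT arrays.

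Counts in lipid synthesis were small, beside 4.39% of all genes that rose and 4.97% that fell. Of 22 genes of fatty acid and triglyceride synthesis 1 rose and 2 fell (1 and 3 without fasted mFoxO-TKO replicate 1). Pnpla3, a lipid droplet protein gene that SREBP1c raises, stood at 0.96, 0.97, -0.4 and 0.52 in fasted mFoxO-TKO muscle, against -1.29, -1.41, -1.95 and -1.24 in fasted WT muscle (1.99 ± 0.37, 3.96-fold higher, adjusted p = 0.00246). Insig1 and Acacb fell, with 0 falls left without fasted mFoxO-TKO replicate 2 or 3 or fasted WT replicate 4, and 1 without fasted mFoxO-TKO replicate 4 or fasted WT replicate 1 or 2. Srebf1 and Fasn, the fatty acid synthase, did not pass (0.47 ± 0.25 and 0.33 ± 0.35, adjusted p = 0.296 and 0.653). In cholesterol synthesis 2 of 23 genes rose and 1 fell (2 and 1 without fasted mFoxO-TKO replicate 1, 4 and 1 with replicate number as a block). Dhcr7, which makes the last step to cholesterol, was among the 2 that rose. The number of rises was 4 without fasted WT replicate 1 and 1 without fasted WT replicate 3 or 4. Fdft1, the squalene synthase, was lower by its brighter probe (-2.1 ± 0.23, 4.29-fold lower, adjusted p = 2.46e-05), whereas its dimmer probe gave -0.85 ± 0.55 and did not pass (adjusted p = 0.413). Sqle, the next enzyme, differed by 0.27 ± 0.25 (adjusted p = 0.597). In the respiratory chain limma called 0 of 43 genes, with 0 at an unadjusted p under 0.05 and a median of -0.01. With replicate number as a block, 1 gene of the respiratory chain fell, 2 genes rose in each of the autophagy, lysosome and antioxidant lists, and 1 rose in each of the atrophy ligase, ubiquitin supply, ATF4, ribosome biogenesis and chaperone lists.

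Among regulators of muscle identity and the nerve contact, 2 of 32 genes rose and 2 fell (3 and 3 without fasted mFoxO-TKO replicate 1). These counts were near the 4.39% and 4.97% of all genes that rose and fell. Myod1, the factor that sets the myogenic fate, stood at 3.17, 1.64, 1.69 and 1.88 in fasted mFoxO-TKO muscle, against -2.44, -0.24, -1.5 and -1.11 in fasted WT muscle (3.41 ± 0.43, 10.7-fold higher, adjusted p = 9.3e-05). All WT arrays lay below 0 and all knockout arrays above 1, with replicate 1 the highest. The 6 satellite cell markers, from cells that can express Myod1, all had positive differences with a median of 0.49 and did not pass, among them Pax7 at 0.72 ± 0.30, Cdh15 at 0.64 ± 0.21 and Itga7 at 0.85 ± 0.50. Their summed level ran from 4.37 to 82.0 in fasted mFoxO-TKO and from 14.3 to 52.6 in fasted WT muscle, and their part in the difference of Myod1 was not tested. Mamstr, a coactivator of MEF2 factors chosen for its interaction with feeding, stood at 2.17, 2.09, 2.36 and 2.75 against -0.82, -0.18, -1.13 and -0.41 in fasted WT muscle (2.98 ± 0.2, 7.87-fold higher, adjusted p = 3.38e-07). Smad3, which carries myostatin and TGF-beta signals, stood at 5.78, 5.47, 5.23 and 5.51 against 3.76, 4.16, 4.29 and 3.79 in fasted WT muscle (1.5 ± 0.16, 2.83-fold higher, adjusted p = 2.54e-05). Acvr2b, the receptor of myostatin, differed by -0.9 ± 0.18 (adjusted p = 0.00372). Musk, the kinase that organises the neuromuscular junction, differed by -1.63 ± 0.45 (adjusted p = 0.0338, 3 knockout arrays), a call lost without fasted mFoxO-TKO replicate 2, 3 or 4 or fasted WT replicate 1 or 3. The list had 1 fall without fasted mFoxO-TKO replicate 2, 3 or 4 or fasted WT replicate 1.

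Of 40 contractile and calcium handling genes 1 rose (Casq1, 0 without fasted WT replicate 3 and 2 without fasted WT replicate 2) and 0 fell, with a median of 0.05, where 9.36% of all genes passed. Of 42 matrix genes 1 rose (Col5a1) and 0 fell, with 35 positive differences and a median of 0.28, which was 0.11 without fasted mFoxO-TKO replicate 1. That count was 0 without fasted WT replicate 3, and 2 without fasted mFoxO-TKO replicate 3 or 4 or with replicate number as a block. Col1a1 and Col6a1, major collagens, did not pass (0.27 ± 0.34 and 0.35 ± 0.27, adjusted p = 0.716 and 0.51). Scx, the tendon factor scleraxis and a marker of tendon fibroblasts, stood at 4.01, 4.2, 3.14 and 3.92 in fasted mFoxO-TKO muscle, against 0.02, 1.32, 1.35 and 1.28 in fasted WT muscle (2.83 ± 0.31, 7.11-fold higher, adjusted p = 2.69e-05). The other 9 fibroblast markers did not pass, and the part of tendon tissue in the difference of Scx was not tested.

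Of 22 vessel genes 1 rose, where 4.39% of all genes did. It was Apln, the ligand apelin, at -1.75, -2.5, -3.24 and -2.4 in fasted mFoxO-TKO muscle, against -5.85, -3.32, -4.97 and -3.12 in fasted WT muscle (1.84 ± 0.55, adjusted p = 0.0459). The groups overlapped, it was above background on 2 of 4 WT arrays, and the call was lost without fasted mFoxO-TKO replicate 1, 2 or 4 or fasted WT replicate 1 or 3, while 2 vessel genes rose without fasted WT replicate 2 or with replicate number as a block. Mrc1 (CD206), a macrophage marker, differed by 0.86 ± 0.26 (adjusted p = 0.0456), and lost its call without any of 6 arrays, among them fasted mFoxO-TKO replicates 1 and 2 and each WT array. Of 25 cell cycle genes 1 rose and 1 fell (Hmgb2), near the 4.39% and 4.97% of all genes. There were 2 rises without fasted mFoxO-TKO replicate 1 and 2 falls without replicate 2 of that group or with replicate number as a block. Aurka, a kinase of mitosis, stood at 4.18, 2.79, 3.06 and 3.64 in fasted mFoxO-TKO muscle, against 0.93, 1.28, 1.33 and 0.83 in fasted WT muscle (2.32 ± 0.25, 5-fold higher, adjusted p = 2.54e-05), while no other mitosis gene of the list passed.

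**Figure D3:**
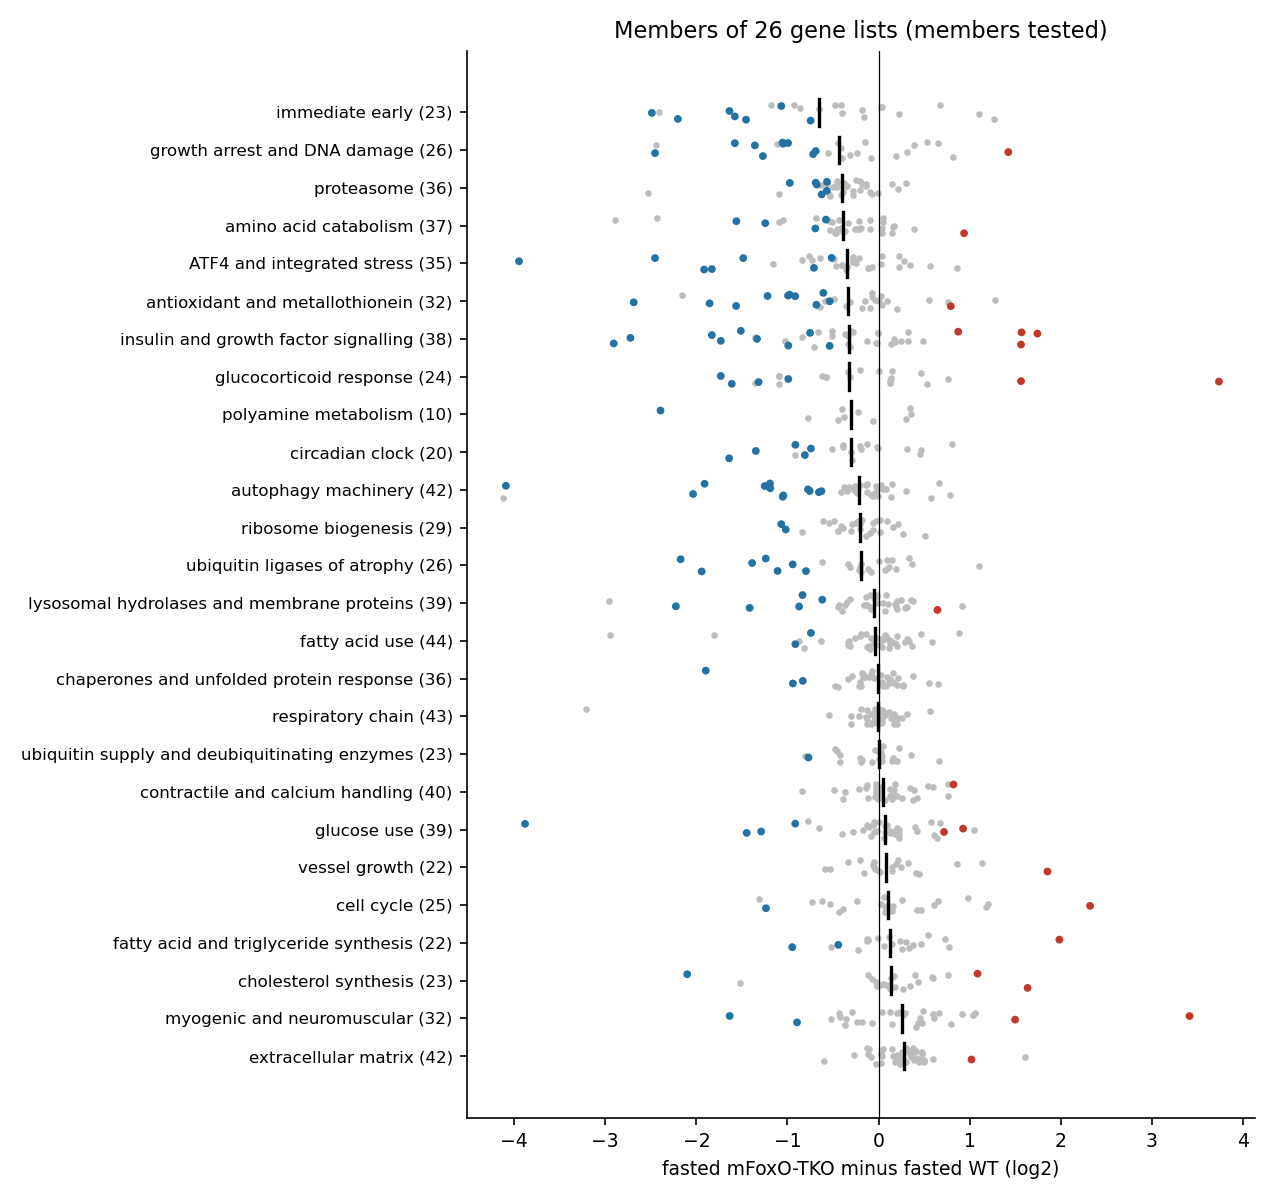
Differences (fasted mFoxO-TKO minus fasted WT, log2) of the members of 26 gene lists, with the number tested in brackets. Red and blue points rose and fell, grey points did not pass, and black bars are medians, from -0.65 for immediate early genes to 0.28 for matrix genes. The grey point at -4.12 in the autophagy row is Bnip3.

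Among genes with the largest rises, Chrna9, a subunit of nicotinic acetylcholine receptors, stood at 0.97, 0.95, -0.01 and 3.16 in fasted mFoxO-TKO muscle, against -5.27, -4.9, -4.42 and -2.12 in fasted WT muscle (5.45 ± 0.76, adjusted p = 0.000259). It was above background on 4 knockout arrays and on 1 WT array. Aqp4, the water channel of fast muscle fibres, stood at 2.37, 2.61, 2.51 and 3.41 against -1.88, -0.42, -0.9 and -1.35 in fasted WT muscle (3.86 ± 0.28, 14.5-fold higher, adjusted p = 6.03e-07). Car9, a carbonic anhydrase at the cell surface, stood at 2.01, 2.0, 2.28 and 1.75 against -1.27, -1.01, -0.9 and -1.67 in fasted WT muscle (3.22 ± 0.18, 9.33-fold higher, adjusted p = 5.47e-08). Both were read on every array of both groups, with more than 2 units between the groups.

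Mpp3, a membrane scaffold, and Mdga1, a cell adhesion protein gene, differed by 3.14 ± 0.29 and 3.11 ± 0.23 (adjusted p = 5.86e-06 and 5.4e-07). Ren1, which encodes renin, stood at 1.77, 1.1, 0.73 and 0.75 in fasted mFoxO-TKO muscle, against -2.86, -2.14, -2.65 and -2.09 in fasted WT muscle (3.52 ± 0.31, 11.5-fold higher, adjusted p = 3.77e-06). Atp1a4, a sodium pump subunit known from sperm, differed by 3.41 ± 0.26 (adjusted p = 8.46e-07) and was above background on 2 WT arrays. Some rises are known only as bounds. Fgl1, a secreted protein made mainly by liver, was not above background on any WT array and was at least 6.51-fold higher (adjusted p = 2.7e-05), and Maats1 was at least 4.06-fold higher (adjusted p = 2.35e-06).

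**Figure D4:**
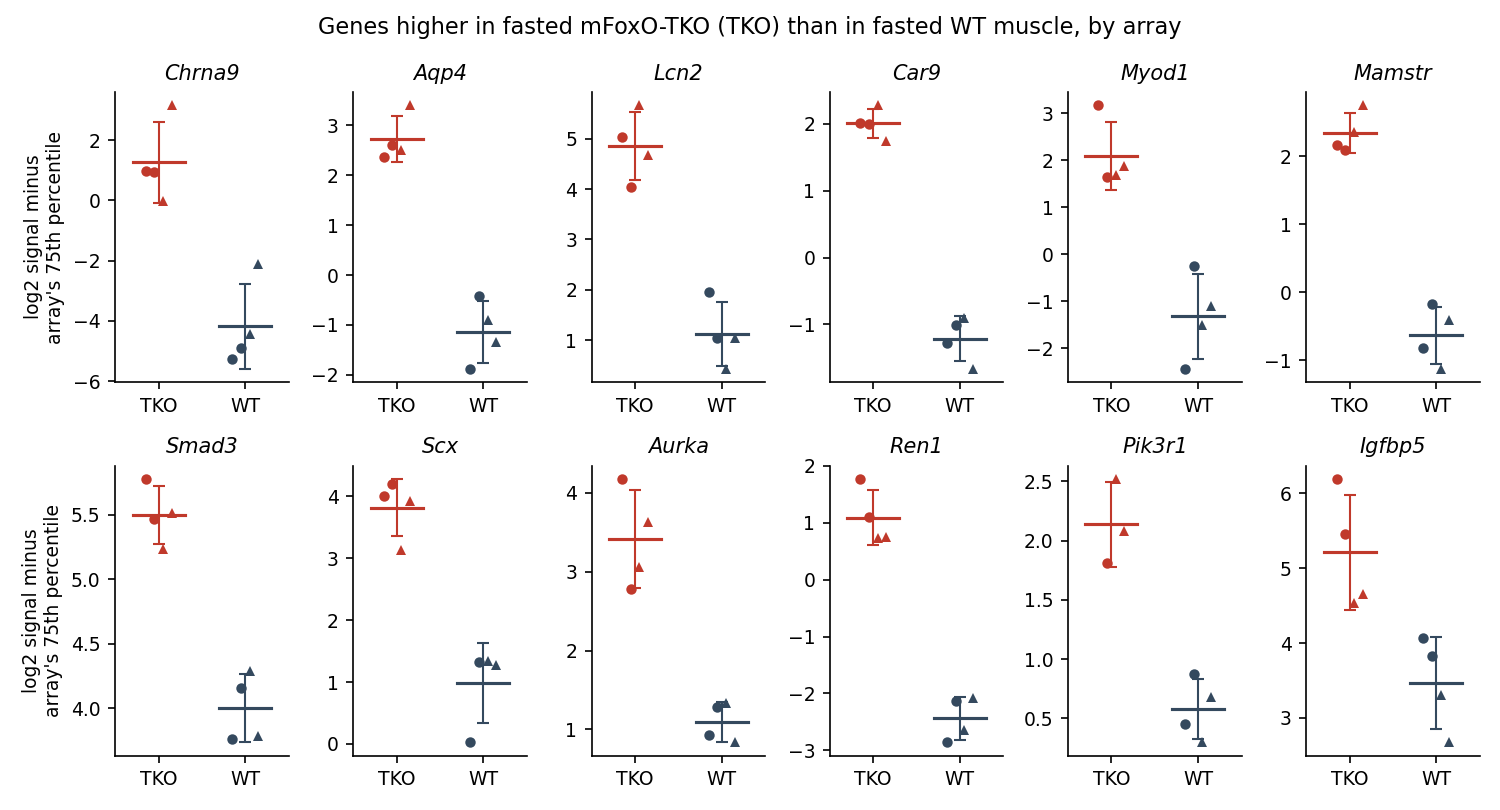
Level by array (log2 signal minus the array's 75th percentile) of 12 genes that rose, fasted mFoxO-TKO (TKO, red) left of fasted WT (dark). Circles are replicates 1 and 2, triangles replicates 3 and 4, bars give the mean ± SD, Pik3r1 has 3 knockout points, and no panel shows an overlap between the groups.

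Among genes with the largest falls outside the lists, Tspan8, a tetraspanin, stood at 0.38, 0.18, 0.02 and -0.51 in fasted mFoxO-TKO muscle, against 3.61, 3.78, 3.81 and 3.71 in fasted WT muscle (-3.71 ± 0.19, 13.1-fold lower, adjusted p = 2.51e-08). Ctxn3, a cortexin, stood at 0.33, 0.39, 0.61 and 0.87 against 4.25, 3.78, 4.44 and 5.36 in fasted WT muscle (-3.91 ± 0.3, 15-fold lower, adjusted p = 9.08e-07). The groups lay more than 3 units apart for Tspan8 and more than 2 for Ctxn3. Tmem140 stood at 5.37, 4.41, 4.53 and 4.54 in fasted mFoxO-TKO muscle, against 7.9, 7.74, 7.72 and 7.37 in fasted WT muscle (-2.97 ± 0.33, 7.83-fold lower, adjusted p = 3.42e-05), and is the gene printed above with a pair of motif matches. Rnf39, which encodes a RING-finger protein, stood at -2.77, -4.8, -4.56 and -4.77 against -0.53, -0.62, 0.65 and -0.33 in fasted WT muscle (-4.02 ± 0.52, adjusted p = 0.000135), and was above background on 1 knockout array. Tmem132e differed by -3.75 ± 0.27 (adjusted p = 5.33e-07), likewise above background on 1 knockout array. Tnfrsf19, a receptor of the tumour necrosis factor family, differed by -3.22 ± 0.34 (adjusted p = 2.18e-05), and Rassf4, a Ras-association protein gene, by -3.11 ± 0.27 (adjusted p = 4.18e-06). Doc2b, a calcium sensor of vesicle release, was chosen for its interaction with feeding and not as one of the largest falls. It differed by -2.84 ± 0.38 (adjusted p = 0.000155).

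Whether the knockout difference in fasted muscle departed from that in fed muscle was tested as an interaction. In fed muscle 217 genes passed (1.02%), and 158 of these also passed in fasted muscle. The interaction passed for 244 genes (1.15%), of which 154 were negative and 90 positive, and 238 of them were among the 1991 genes that passed in fasted muscle (12%). Those 238 comprised 151 that fell and 87 that rose. Because the interaction contains the fasted difference, this overlap is largely built in, and nothing is read from the share of 12%. Without fasted mFoxO-TKO replicate 1 the interaction count was 437, it was 149 and 143 without replicates 2 and 4 of that group, and with replicate number as a block 697. The fed and fasted groups are separate mice.

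Depp1 differed by -4.09 ± 0.38 in fasted and by -0.35 ± 0.38 in fed muscle (adjusted p = 0.968 in fed), with an interaction of -3.74 ± 0.54, adjusted p = 0.00307. Gabarapl1 differed by -2.04 ± 0.21 and -0.32 ± 0.2 (interaction -1.72 ± 0.29, adjusted p = 0.0112), and Ulk1 by -1.91 ± 0.16 and -0.34 ± 0.16 (interaction -1.57 ± 0.23, adjusted p = 0.0035). For all 3 the fed difference did not pass. Gadd45a differed by -2.45 ± 0.26 in fasted and 0.00 ± 0.26 in fed muscle (interaction -2.46 ± 0.37, adjusted p = 0.00437). Rassf4 and Doc2b likewise had fed differences of 0.21 ± 0.27 and 0.00 ± 0.38 that did not pass. Doc2b was above background on only 2 fed mFoxO-TKO and 3 fed WT arrays, so its fed difference was read near the detection limit. Of the ubiquitin ligases, the interaction passed for Fbxo30 (-1.47 ± 0.23, adjusted p = 0.00557) and Ube4a (-0.9 ± 0.21, adjusted p = 0.0494), and not for Fbxo32 (-1.47 ± 0.45, adjusted p = 0.16) or Trim63 (-0.24 ± 0.47, adjusted p = 0.932).

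Other genes differed by genotype in both feeding states. Tspan8 differed by -3.71 ± 0.19 in fasted and -3.21 ± 0.19 in fed muscle (adjusted p = 1.36e-07 in fed), and Pik3ip1 by -2.91 ± 0.23 and -2.28 ± 0.23 (adjusted p = 6e-05 in fed). Ren1 differed by 3.52 ± 0.31 in fasted and 3.33 ± 0.31 in fed muscle (adjusted p = 2.35e-05 in fed). The interactions of these 3 did not pass (adjusted p = 0.577, 0.548 and 0.947). Pfkfb3 passed in both states and in the interaction, with -3.88 ± 0.2 in fasted and -1.82 ± 0.2 in fed muscle (interaction -2.06 ± 0.29, adjusted p = 0.00244). Slc43a1 did so too, with -4.17 ± 0.26 in fasted and -1.32 ± 0.26 in fed muscle (interaction -2.85 ± 0.37, adjusted p = 0.00137).

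Among genes that rose, Aqp4 differed by 3.86 ± 0.28 in fasted and 0.78 ± 0.28 in fed muscle (interaction 3.08 ± 0.4, adjusted p = 0.00137). Myod1 differed by 3.41 ± 0.43 and 0.39 ± 0.43 (interaction 3.02 ± 0.61, adjusted p = 0.0234), Lcn2 by 3.74 ± 0.44 and 0.88 ± 0.44 (interaction 2.85 ± 0.62, adjusted p = 0.0351), and Smad3 by 1.5 ± 0.16 and 0.01 ± 0.16 (interaction 1.48 ± 0.23, adjusted p = 0.00485). The fed difference of these 4 genes did not pass. Mean levels in fed and fasted WT muscle were 2.0 and -1.14 for Aqp4, 1.65 and -1.32 for Myod1, and 5.28 and 4.0 for Smad3. In fed and fasted mFoxO-TKO muscle they were 2.78 and 2.72, 2.05 and 2.09, and 5.29 and 5.5, in the same order. Lcn2 stood at means of -0.68 and 1.12 in fed and fasted WT muscle and 0.21 and 4.86 in fed and fasted mFoxO-TKO muscle. Fgf5, a growth factor gene chosen for its interaction, stood at -2.23, -1.95, -2.42 and -2.36 in fasted mFoxO-TKO muscle, against -5.91, -4.36, -4.9 and -4.42 in fasted WT muscle (2.66 ± 0.35, adjusted p = 0.000148), and was above background on 2 WT arrays.

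**Figure D5:**
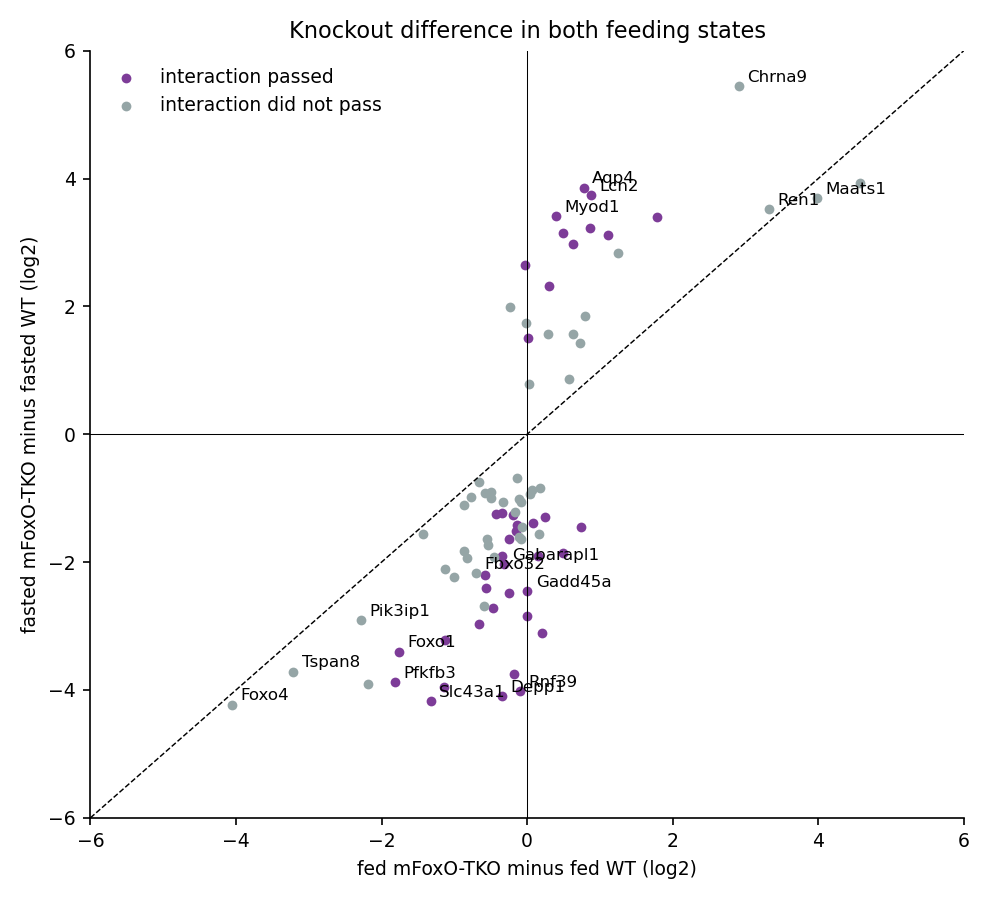
Knockout minus WT difference (log2) in fasted muscle (vertical axis) and in fed muscle (horizontal axis) for the 85 described genes that passed in fasted muscle. Purple points passed the interaction test, grey points did not, and the dashed line marks equal differences. Depp1 lies at -0.35 in fed and -4.09 in fasted muscle, and Ren1 close to the line at 3.33 and 3.52.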

How the data were processed

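Quadriceps RNA of 16 mice was hybridised to 16 one-colour Agilent arrays. Signal intensities are those of the deposited scanner files: per the file headers, Feature Extraction 11.0.1.1 subtracted background and detrended each array, while the submitters' processing notes name version 9.5, and the design build is mm9. The outlier, saturation and background flags used are 0 or 1 per spot, per the file headers, and the files also hold median spot and background signals. The authors' deposited value table is a score, equal to the processed signal times 1 factor per array with the 75th percentile at 100, medians of 22 to 25 and no log or centring.

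From 59305 non-control spots (55681 probes, 28331 with a symbol by RefSeq accession), outlier spots (0.143% to 3.28% per array) were removed and the log2 signal was centred on the array's 75th percentile. The 28571 probes kept were read as 21281 genes by the brightest probe, 14150 with a symbol, and fitted with limma 3.58.1 in R 4.3.3 as 4 group means (12 residual degrees of freedom, prior 3.24). The script was tested on simulated data. The number of arrays limits the precision, and p-values measure the spread between these mice as arrayed.

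Genes with values are Foxo1, Foxo3 and Foxo4, the 15 largest rises and falls without overlap, the first 3 members and up to 5 largest changes each way of a list, all members of counts of 5 or fewer, and the 8 largest interactions of each sign, from which those described were taken. Bnip3 and genes named without a value to complete a count were chosen after their values were seen. Some members are not reported here. Members and lists were chosen with earlier results of these data known. Same-numbered fasted arrays share a slide and an array row, and their deviations correlated at 0.125, 0.215, 0.105 and 0.303, all above 0.1, so replicate number was also fitted as a block. The calls come from the fit without that block, in which 1991 genes passed, against 3377 with it. Whether the numbers pair the mice is not known. Arrays of different number on the same slide correlated at 0.175, 0.0557, 0.106 and 0.172, so a pair effect and a slide effect are not separated.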

Additional observations from a re-analysis of the deposited data

Results flagged for a closer look

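Of 203 groups of 4 arrays examined for the described genes, 20 held an array whose gap to the nearest other array exceeded Dixon's critical value at the 95% level as a share of the group's range, and chance alone does so in about 1 in 20 groups. Values are levels on the log2 scale. Fasted mFoxO-TKO replicate 1 stood at 4.64 for Psmd11 (others 3.94 to 4.03), 4.05 for Psme4 (others 3.65 to 3.71) and -4.85 for Bnip3 (others 7.44 to 7.73). Fasted mFoxO-TKO replicate 1 lay at 6.12 for Ctsl (others 5.46 to 5.54), 2.56 for Fdft1 (others 1.72 to 1.77) and 1.34 for Igf1r (others 0.89 to 0.91). Fasted mFoxO-TKO replicate 1 was at 3.06 for Grb14 (others 1.98 to 2.14), -3.51 for Gclm (others -1.17 to -0.74) and 5.65 for Srxn1 (others 3.78 to 4.07). Fasted mFoxO-TKO replicate 1 read 3.17 for Myod1 (others 1.64 to 1.88), 3.43 for Mdga1 (others 2.63 to 2.70) and 5.37 for Tmem140 (others 4.41 to 4.54). Fasted mFoxO-TKO replicate 1 measured -2.77 for Rnf39 (others -4.80 to -4.56). Fasted WT replicate 1 stood at 7.80 for Depp1 (others 7.06 to 7.14), 6.75 for Sesn1 (others 5.18 to 5.43) and 6.55 for Cry2 (others 5.83 to 5.86). Fasted WT replicate 1 lay at 0.0224 for Scx (others 1.28 to 1.35). Fasted WT replicate 2 stood at 6.75 for Ctsl (others 7.17 to 7.18). Fasted mFoxO-TKO replicate 2 stood at 3.12 for Trp53inp1 (others 2.52 to 2.62). Fasted mFoxO-TKO replicate 3 stood at 5.78 for Pnpla2 (others 6.16 to 6.20). Of the 20, 13 came from fasted mFoxO-TKO replicate 1, the array that stood apart and that held most of the dim blocks. The spots of Bnip3 and Gclm on it lay in such blocks, and the part of the array in the other 11 was not tested.

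The knockout difference in fasted muscle departed from that in fed muscle for 40 of the 107 genes with described values, by limma's interaction test with Benjamini-Hochberg adjustment. Over all genes tested the share was 1.15%, and the 107 include genes chosen for large interactions and large fasted differences, so nothing is read from the 40. The values are the fasted difference (mFoxO-TKO minus WT) minus the fed difference, on the log2 scale. Tmem132e was above background on 1 array each of fasted mFoxO-TKO, fed mFoxO-TKO and fed WT, Rnf39 on 1, 3 and 2 of them, and Doc2b on 4, 2 and 3, so their values rest on signals near the detection limit and have no order. Negative values were -3.93 for Rnf39, -3.74 for Depp1, -3.57 for Tmem132e, -3.31 for Rassf4, -2.85 for Slc43a1, -2.84 for Doc2b and -2.80 for Chac1. Next came -2.46 for Gadd45a, -2.35 for Srxn1, -2.31 for Tmem140, -2.25 for Sesn1, -2.24 for Maff, -2.19 for Junb and -2.10 for Tnfrsf19. Smaller ones were -2.06 for Pfkfb3, -2.05 for Edem1, -1.83 for Odc1, -1.72 for Gabarapl1, -1.64 for Foxo1, -1.62 for Ier3 and -1.56 for Ulk1. The rest of the negative ones were -1.53 for Slc2a1, -1.47 for Fbxo30, -1.39 for Mafk, -1.36 for Igf1r, -1.28 for Ctsl, -1.07 for Ccng2, -0.90 for Ube4a and -0.82 for Sqstm1. The positive ones were 3.08 for Aqp4, 3.02 for Myod1, 2.85 for Lcn2, 2.69 for Fgf5, 2.65 for Mpp3 and 2.36 for Car9. Lower in size were 2.35 for Mamstr, 2.02 for Aurka, 2.0 for Mdga1, 1.62 for Atp1a4 and 1.48 for Smad3.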

How the results depend on the processing

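The count of 1991 passing genes was 1533 to 2301 with 1 array left out, 3377 with a replicate block, 3026 with slide as a block, 416 on slide 1 alone, 1856 on slide 2 alone, 894 from the 8 fasted arrays alone and 3399 with the percentile taken over probes above background on all arrays. The share of higher genes, 46.9%, was 35.2% without fasted mFoxO-TKO replicate 1 and with array weights, 38.2% without fasted WT replicate 3, 39.1% on slide 2, 60.3% on slide 1 and 60% with that percentile. The interaction count of 244 was 143 to 437 with 1 array left out, 697 with a replicate block, 564 with slide as a block, 7 and 70 on slides 1 and 2, 924 with array weights, 609 with that percentile, 79 with no filter on dim probes and 708 with the authors' value table, and the 8 fasted arrays alone cannot give it. Windows of genes that fell held the core in 44.4%, against 50.5% of all windows, and, with only the longer motif searched, 5.4% against 3.65%. Of the 85 described genes that passed, all 85 passed with either block, 75 of 75 measured on slide 1 and 84 of 84 on slide 2 kept their direction, and 44 and 72 passed there. Differences that had not passed changed sign for Cpt1b (-0.21 to 0.0311 with 1 array left out, the highest without fasted WT replicate 2, and 0.0562 on slide 1), Acot1 (-1.44 to 0.13 with 1 array left out, the highest without fasted mFoxO-TKO replicate 1, 0.18 on slide 2, 0.32 with array weights), Fasn (-0.24 on slide 2, -0.12 with array weights), Slc2a4 (0.0335 on slide 2), Fkbp5 (-0.25 on slide 1, -0.16 with normexp), Per1 (-0.37 to 0.0409 with 1 array left out, the highest without fasted WT replicate 1) and Asns (0.21 on slide 1). The cause was not tested. Normexp used median spot signals, and leaving out the dim blocks of all arrays (2351 passing genes) was chosen after seeing the data. Signal over background limits genes such as Foxo4, Fgl1 and Maats1 to bounds.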
